A study of Homo sapiens with 6 samples.

Results

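Chromosome 4 was described in Hi-C maps of DKO1 cells and of HCT116 cells, which are an established human colorectal cancer line and the parent of DKO1. DKO1 carries knockouts of DNMT1, the maintenance DNA methyltransferase, and of DNMT3B, a de novo enzyme, and both lines were grown in the same medium with serum. DKO1 is 1 derived line, so that the knockout cannot be told apart from any other difference between the lines. All bins of 20 kb that lay on chromosome 4 in both compartment tracks were taken, together with all entries of chromosome 4 in both domain lists. This gave 9377 of the 140474 bins shared by the tracks, 59 of the 1823 domains listed in DKO1 and 179 of the 4289 listed in HCT116. Each line had 3 libraries, but the labels of the 3 name the same files, which were therefore taken as pooled. With 1 track and 1 domain list per line, no difference between the lines could be tested, and the depth of the maps is unknown. Ranks and shares below are descriptions of these maps.

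Chromosomes fold into a pair of compartments, an open and gene-rich compartment A and a closed, gene-poor compartment B, whose stretches contact others of their own kind. The first principal component of the contact map, PC1, separates them, and positive values were called A and negative values B. Within A and B, contacts are further confined to topologically associating domains. Stretches of B in cancer cells often lie in partially methylated domains, where DNA methylation is reduced. The end of the long arm of chromosome 4 carries the D4Z4 repeat array, known for the loss of its methylation in a form of muscular dystrophy, and the repeat itself was not measured here.

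The bins of chromosome 4 covered 187.54 Mb, the rank of 4 among 22 autosomes. A gene table of another build listed 770 protein-coding genes on it, or 4.11 per Mb of bins, where the median of the other 21 autosomes was 6.88 and only 2 had fewer. The largest gap between consecutive bins, of 3.1 Mb, lay at 49560001 to 52660000 on hg19 and was taken as the centromere. It left 2460 bins on the short arm and 6917 on the long arm. PC1 is given in SD units, because the deposited tracks are scaled on each chromosome to an SD of 1 around 0. A value is therefore relative to the rest of the chromosome.

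Compartment A made up less of chromosome 4 in HCT116 than of any other autosome, but by a narrow margin. Its share in DKO1 was almost the same. The share of A was 47.3% of bins in DKO1 and 46.4% in HCT116, against 49.3% and 54.3% over the other autosomes. The next lowest autosomes in HCT116, chromosomes 12 and 3, both had 46.8%. Each track is scaled around 0 per chromosome, so the share depends on where 0 falls. This rank is therefore not read as a trait of chromosome 4. Bins that were B in DKO1 and A in HCT116, called A-loss bins here, made up 6.69% of chromosome 4 (6.20 to 7.21), or 12.54 Mb. On the other autosomes they made up 9.09%. Bins that were A in DKO1 and B in HCT116, called A-gain bins, made up 7.60% (7.08 to 8.16), or 14.26 Mb, against 4.15% on the other autosomes. The intervals in brackets are Wilson intervals at 95%, and since neighbouring bins are not independent they cover counting error only and are too narrow. The share of A-loss bins had rank 12 among the 22 autosomes, and that of A-gain bins rank 4, after those of chromosomes 13, 6 and 21. Together 14.3% of bins had the other sign in DKO1, where the background, the share on the other autosomes, was 13.2%.

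DKO1 minus HCT116, the A share of chromosome 4 differed by 0.92 percentage points, against a median of -4.55 over the other autosomes. Its sign was not stable. It was -0.74 with only bins of an absolute PC1 of at least 0.5 in both lines, and -0.92 after a 10 Mb running mean was subtracted from each track. It was -0.84 when only switched runs of at least 200 kb counted and -0.20 without 5 Mb at each end of the chromosome. With the PC1 minimum the shares of A-loss and A-gain bins themselves were 1.07% and 0.34% of the bins kept. The minimum leaves out weak bins, which switch most often. Over the bins, the tracks had a Pearson r of 0.83 and a Spearman rho of 0.83, where the other autosomes had a median r of 0.92, and 4 autosomes had a lower r than chromosome 4.

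**Figure D1:**
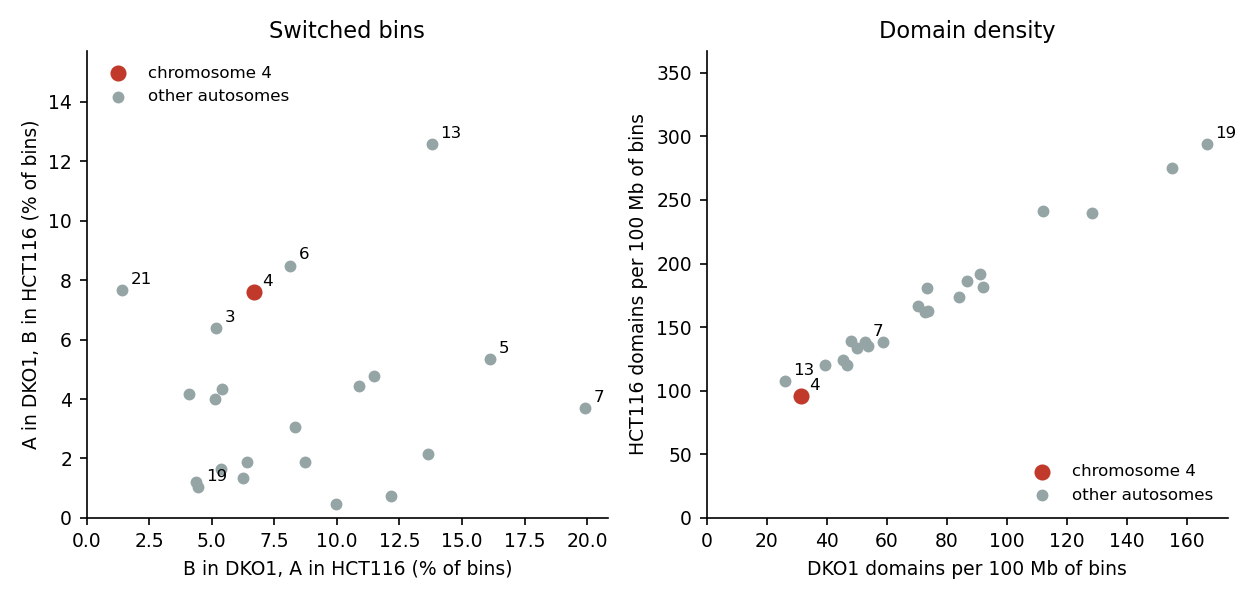
Left, share of bins that were B in DKO1 and A in HCT116 (x axis, percent) against the share that were A in DKO1 and B in HCT116 (y axis, percent), 1 point per autosome. Right, domains listed per 100 Mb of bins in DKO1 (x axis) and in HCT116 (y axis). Chromosome 4, in red, lies high on the y axis at left (7.60%) and has the lowest HCT116 value at right (95.4).

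As on the other autosomes, switched bins on chromosome 4 were concentrated where HCT116 had a weak PC1 or a short compartment interval. A switch is a change of sign, so a bin of weak PC1 needs a smaller difference to switch, and this order follows in part from the definition. Of the bins with an absolute HCT116 PC1 under 0.5, 30.6% switched, against 33.4% on the other autosomes. The share was 8.83% between 0.5 and 1 (9.26% on the other autosomes) and 3.26% at 1 or more (1.77%). Weak bins of A lost their sign in 36.6% of cases on chromosome 4 and in 45.8% elsewhere, whereas weak bins of B did so in 26.6% and 19.2%. Bins of 0.5 to 1 switched in 11.3% of A and 7.21% of B, against 9.43% and 8.95% elsewhere, and those of 1 or more in A in 1.70% against 0.745%. Of the 1435 bins of chromosome 4 with an HCT116 PC1 of -1 or lower, 5.44% (4.38 to 6.73) were A in DKO1, where the background was 2.69%. Most of the bins that switched from such values lay on the short arm. The share was not computed by arm, so the excess cannot be read as a trait of the whole chromosome.

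HCT116 intervals, which are runs of bins with 1 sign, followed the same order by length. Bins in intervals under 200 kb switched in 43.9% of cases on chromosome 4 and 40.5% on the other autosomes. Those in intervals of 200 to 1000 kb switched in 24.4% and 22.6%, and those in intervals of 1000 kb or more in 7.89% and 9.19%. By compartment, the excess over the other autosomes lay in B. Bins of B switched in 43.7%, 24.7% and 7.75% of cases in intervals of increasing length, against 27.8%, 17.6% and 5.51% elsewhere. Bins of A did so in 44.1%, 24.0% and 8.05%, against 53%, 27.3% and 12.2%. Chromosome 4 was finely divided, with 432 intervals in DKO1 and 381 in HCT116. Per 100 Mb of bins this was 230.4 in DKO1 and 203.2 in HCT116, against medians of 156.2 and 138.5 on the other autosomes. Whether the higher number in DKO1 comes from noise between neighbouring bins was not tested.

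The balance of A between the lines was also compared in windows of 5 Mb. Of 38 windows with at least 100 bins, 20 had a higher share of A in DKO1, 15 had a lower share and 3 an equal one. The share of windows with more A in DKO1 was 52.6%, where the background was 33.8%, and it was the highest of the 22 autosomes. On chromosome 4 this share was 47.4% with the windows shifted by 2.5 Mb and 44.2% with windows of 2 Mb. These settings were not computed for the other autosomes, so the rank holds for 1 placement of the windows. The next highest share, on chromosome 6, was 47.1%. Mean PC1 was higher in DKO1 in 21 windows and lower in 17. In 5 windows the mean differed by at least 0.5 SD, or 13.2% against a background of 11.7%, and 4 of the 5 lay on the short arm. On the long arm, 8 consecutive windows from 85 to 125 Mb all had a lower mean in DKO1, and 10 consecutive windows from 140 to 190 Mb all had a higher one. On the other large autosomes the longest stretch of 1 sign was 9 windows on chromosomes 1, 3 and 5, 10 on chromosome 6 and 6 on chromosome 2.

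**Figure D2:**
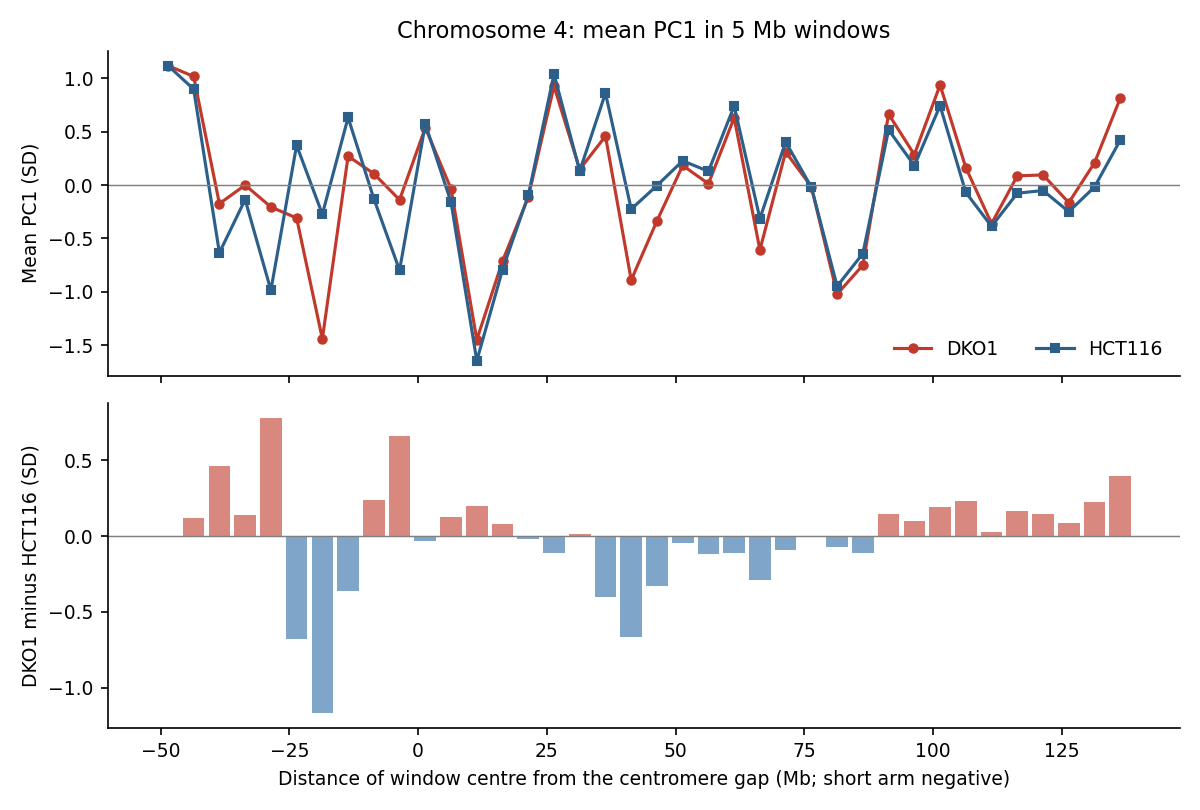
Mean PC1 in 5 Mb windows of chromosome 4 in DKO1 (red) and HCT116 (blue), above, and DKO1 minus HCT116, below, both in SD. The x axis is the distance from the centre of the centromere gap, at 51.11 Mb, with the short arm negative. The differences range from -1.17 to 0.78 on the short arm, and the 10 windows from 140 to 190 Mb of the chromosome are all above 0.

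The arms differed in how far the tracks were shared. On the short arm r was 0.75, against 0.88 on the long arm, and the median absolute difference in PC1 was 0.62 SD against 0.29 SD. The shares of switched bins were nevertheless close, at 14.9% on the short arm and 14.1% on the long arm. PC1 also varied more on the short arm, so absolute differences on the arms are not on the same scale. Its SD there was 1.12 in DKO1 and 1.28 in HCT116, against 0.95 and 0.88 on the long arm. The r of each arm was not computed for the other autosomes. The short arm was not uniform. From 10 to 37 Mb, limits chosen after seeing the data, r was 0.48 and 21.2% of bins switched. Over the rest of the short arm r was 0.93 and 7.21% of bins switched. The net change in A was 0.08 percentage points on the short arm and 1.21 on the long arm. Their difference of 1.13 was smaller in size than that on 11 of 16 other autosomes, where the acrocentric chromosomes 13, 14, 15, 21 and 22 were left out. It was -5.29 without 10 to 50 Mb, an alternative chosen after seeing the data, and -0.09 without 5 Mb at the ends.

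On the short arm the depth of B differed between the lines, while at least 72.8% of the bins of each long B interval stayed B in DKO1. Whether copy number or a rearrangement has a part in the offsets between the tracks at 10 to 50 Mb was not tested, as contact maps were not used here. In 6 long stretches HCT116 had a mean PC1 of -1.60 or lower and DKO1 one of -0.27 to -0.97, while 2 stretches between them had the opposite order. Of the 9 HCT116 intervals of B of at least 1 Mb on this arm, 8 differed by at least 0.5 SD in their mean, and the ninth, at 11720001 to 12780000, had -0.52 in DKO1 and -0.999 in HCT116.

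The interval at 22620001 to 24460000 had a mean PC1 of -0.27 in DKO1 and -1.60 in HCT116. The one at 16260001 to 17480000 had -0.34 in DKO1 and -1.66 in HCT116, and the one at 13640001 to 14820000 had -0.68 and -1.77 in the same order. All 3 stayed below 0 on average, but lay closer to 0 in DKO1. The intervals at 42660001 to 44700000 and 44740001 to 47440000, nearer the centromere, had -0.97 and -0.94 in DKO1, against -1.72 and -1.77 in HCT116. The sixth, at 20760001 to 22360000, had -0.53 in DKO1 and -1.61 in HCT116.

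Between these stretches DKO1 had the deeper B. The interval at 31500001 to 36020000, which only 2 B intervals of HCT116 exceed in length, had a mean of -1.47 in DKO1 and -0.52 in HCT116. The one at 27620001 to 30560000 had -1.47 in DKO1 and -0.41 in HCT116. Both were uniformly B in DKO1, where a single B interval ran over 9200 kb from 27040001 to 36240000. Across the 9 intervals the means of the lines correlated with r = -0.69, as a description over neighbours that share a track and its scaling. Over all 26 such intervals of B on chromosome 4 r was 0.06, where the median over 20 other autosomes was 0.59 with a range from -0.38 to 0.90. On the long arm alone r was 0.47 over 17 intervals of B, where the median over the long arms of 16 other autosomes was 0.57. For intervals of A on both arms r was 0.66 over 25 on chromosome 4 and 0.78 in the median elsewhere.

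Of the 26 long B intervals 12 differed by at least 0.5 SD, or 46.2% against a background of 26.8%. The excess lay on the short arm, with 8 of 9. On the long arm 4 of 17 differed as much, or 23.5%, against 26.8% on the long arms of other autosomes. Of the 25 long A intervals 3 differed by at least 0.5 SD, or 12.0% against 10.7%. Of the 6 long A intervals of the short arm, 5 had differences between -0.24 and 0.17, and the exception at 19080001 is given below. Those at 24860001 to 27100000 and 37360001 to 42400000, which flank the block that was deeper in DKO1, had means of 1.15 and 1.20 in DKO1, against 1.40 and 1.40 in HCT116.

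**Figure D3:**
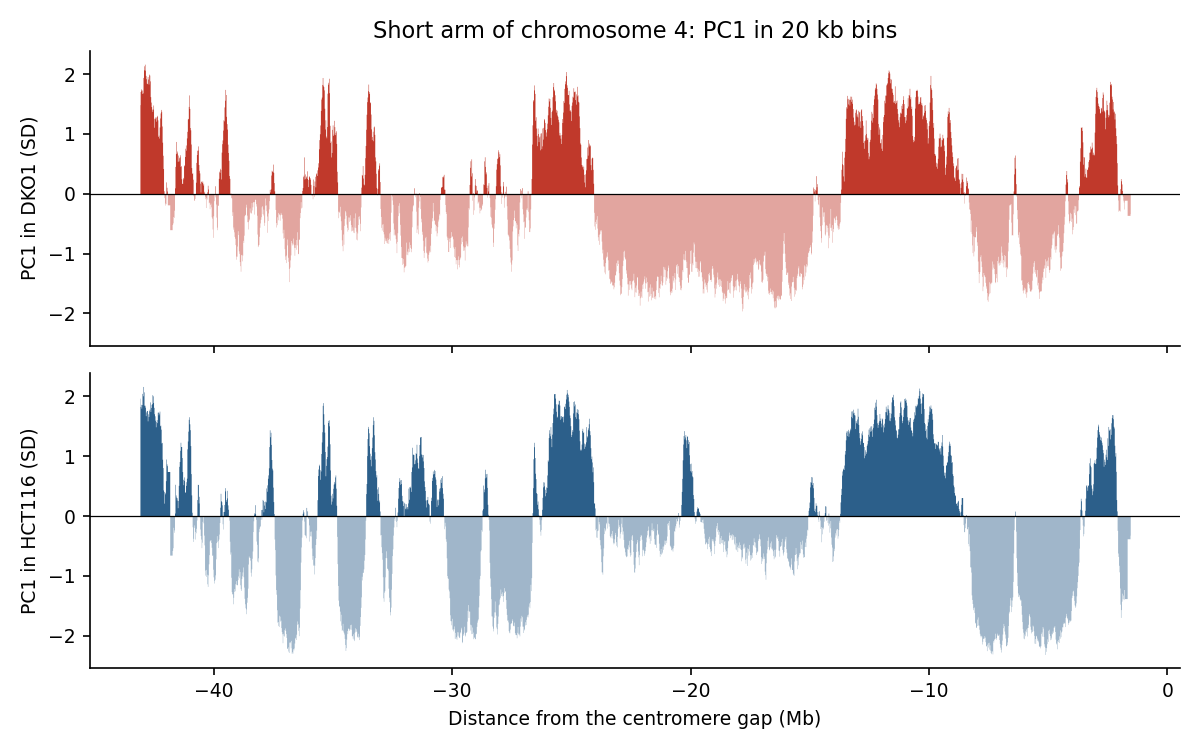
PC1 in 20 kb bins of the short arm of chromosome 4 from 8 Mb to the centromere gap, in DKO1 (above) and HCT116 (below), in SD. The x axis is the distance from the centre of the gap in Mb. The B stretch about 24 to 15 Mb from the gap is deep in DKO1 (mean -1.47 in its longer intervals) and shallow in HCT116 (-0.41 and -0.52), and the B stretches on both sides of it are the reverse.

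The short arm also held the runs with the largest differences among those of at least 200 kb. Switched bins were grouped into runs, of which 163 were A-loss and 208 A-gain runs, with a median length of 40 kb in both directions. Of the A-loss runs 14 measured at least 200 kb, and of the A-gain runs 12. These long runs held 2.78% of the bins of chromosome 4 as A-loss and 1.94% as A-gain, against 4.61% and 1.39% on the other autosomes. An absolute PC1 above 0.5 in at least 1 line in 80% of bins was reached by 7 and 5 of them.

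The A-loss run at 30700001 to 31260000 took up an island of A within the B block described above. Its bins lay between -1.57 and -0.81 in DKO1 and between 0.07 and 1.43 in HCT116, and the means were -1.18 in DKO1 and 0.93 in HCT116. B flanked it on both sides in HCT116, and the whole island was B in DKO1. The difference was -2.12, and -1.13 after subtraction of the 10 Mb running mean, and the surrounding B was also lower in DKO1. A run at 36020001 to 36240000, at the edge of the same block, had means of -0.85 in DKO1 and 0.41 in HCT116, and its difference of -1.26 became -0.63 under the same subtraction.

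A second group of A-loss runs lay at 19 to 20 Mb. The runs at 18800001 to 19060000, 19080001 to 19500000 and 19720001 to 20140000 had means of -0.72, -0.82 and -0.76 in DKO1 and 0.42, 0.48 and 0.69 in HCT116. The second and last lie in 1 HCT116 interval of A, at 19080001 to 20140000, of which 5.66% remained A in DKO1. No domain of either line touched these 3 runs. They lay among the B intervals that were shallower in DKO1, so that neighbouring bins differed in opposite directions. In steps of 1 Mb the difference was -1.35 at 19 to 20 Mb and 1.20 at 21 to 22 Mb.

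The A-gain runs of at least 200 kb on the short arm measured at most 380 kb. The run at 22920001 to 23140000 formed an island of A inside deep B, with a mean of 0.51 in DKO1 and -1.61 in HCT116. It was 220 kb long, and none of its bins exceeded -1.22 in HCT116. The run at 17280001 to 17480000 had 0.35 in DKO1 and -0.80 in HCT116. Nearer the telomere, the run at 5580001 to 5960000 had 0.46 in DKO1 and -0.82 in HCT116, and 0 DKO1 domains touched it against 2 HCT116 domains. With the running mean subtracted, its difference was 1.27 in place of 1.28, and its means had the same sign in both lines.

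Among the 38 windows, those with the largest share of switched bins were 15 to 20 Mb, with 35.2%, and 20 to 25 Mb, with 30.8%. The long arm window at 155 to 160 Mb also had 30.8%. At 20 to 25 Mb the mean PC1 was -0.21 in DKO1 and -0.99 in HCT116, the largest positive difference among the 38 windows. At 45 to 50 Mb and 10 to 15 Mb the means were higher by 0.66 and 0.46. The most negative difference was at 30 to 35 Mb, where DKO1 had -1.44 and no bin of A and HCT116 had -0.27 and 14.8% of A. At 25 to 30 Mb the mean was -0.31 in DKO1 and 0.37 in HCT116, although 1.60% of bins switched and r within the window was 0.95. In steps of 1 Mb the difference in this window was -0.16 at 25 to 26 Mb and -1.14 at 29 to 30 Mb, and it was larger in size in the B interval at 27620001 than in the A interval at 24860001.

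From 85 to 125 Mb on the long arm, all 8 windows had less A in DKO1. A made up 45.6% of these bins in DKO1 and 57.8% in HCT116, with 14.6% A-loss and 2.45% A-gain bins. The limits of this stretch and of the next were chosen after seeing the data. The lowest net values among the 38 windows were at 90 to 95 Mb, with 6.80% of A in DKO1 and 30.4% in HCT116, and at 85 to 90 Mb, with 70.8% in DKO1 and 91.6% in HCT116. At 90 to 95 Mb the mean PC1 was -0.89 in DKO1 and -0.23 in HCT116. At 105 to 110 Mb 24.0% of bins switched, but in both directions, with 14.8% A-loss and 9.20% A-gain bins.

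Of the long intervals in this stretch, those that differed most were lower in DKO1, in B and in A. The A intervals at 108520001 to 109840000 and 119160001 to 120580000 were higher in DKO1, by 0.17 and 0.20 SD. The B interval at 91860001 to 94040000 was deeper in DKO1, at -1.25 against -0.57 in HCT116. The A interval at 94720001 to 96040000 had a mean of 0.07 in DKO1 and 0.63 in HCT116, and 48.5% of its bins were A in DKO1.

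The HCT116 interval of A at 87260001 to 91200000 retained A in 69.0% of its bins. Its mean was 0.51 in DKO1 and 0.91 in HCT116, and its far end, at 90460001 to 91200000, formed the longest A-loss run of the chromosome, of 740 kb. That run had weak values, -0.49 in DKO1 and 0.31 in HCT116, and did not reach the strength given above. Runs that reached it lay at 86480001 to 87020000, with -0.32 in DKO1 and 0.62 in HCT116, and at 94720001 to 95080000, with -0.62 in DKO1 and 0.32 in HCT116. The difference of the second was -0.94, and -0.44 with the running mean subtracted. At each of these runs 1 HCT116 domain and 0 DKO1 domains were listed.

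From 140 Mb to the end of the long arm the balance was the reverse. A made up 57.6% of bins in DKO1 and 45.1% in HCT116, with 15.4% A-gain and 2.90% A-loss bins, and all 10 windows from 140 to 190 Mb had more A in DKO1. This stretch held 27.2% of the bins of the chromosome and 34.8% of its switched bins. The 3 largest gains of A were at 185 to 190 Mb (95.2% in DKO1, 70% in HCT116), 155 to 160 Mb (60% in DKO1, 35.6% in HCT116) and 180 to 185 Mb (53.2% in DKO1, 35.2% in HCT116). The mean PC1 at 155 to 160 Mb was 0.16 in DKO1 and -0.07 in HCT116. Its difference of 0.23 was smaller than the SD of 0.45 of the differences among its bins. The A interval at 169140001 to 171020000 had the largest difference of any long A interval in this stretch, with a mean of 1.43 in DKO1 and 0.89 in HCT116.

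The last 2 Mb of bins, up to 191000000, were mostly A in DKO1 and mostly B in HCT116. Of 100 bins 79% were A in DKO1 and 8% in HCT116. The mean PC1 was 0.40 in DKO1 and -0.44 in HCT116, and 98 of the 100 bins were higher in DKO1. The HCT116 interval of B at 189140001 to 190980000 had a mean of 0.32 in DKO1 and -0.51 in HCT116, and 77.2% of its bins were A in DKO1.

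This end held 4 A-gain runs of at least 200 kb. The run at 190700001 to 190980000 had a mean of 0.87 in DKO1 and -0.33 in HCT116. The run at 189140001 to 189500000 had 0.50 in DKO1 and -0.45 in HCT116, and the run at 190320001 to 190520000 had 0.25 in DKO1 and -0.70 in HCT116. The fourth, at 189680001 to 190220000, was the longest A-gain run of the chromosome at 540 kb, with means of 0.31 in DKO1 and -0.49 in HCT116. With the running mean subtracted, the differences of the first 3 were 0.65, 0.55 and 0.44 SD in place of 1.20, 0.95 and 0.95. The means of the runs at 189140001 and 190320001 then had the same sign in both lines. At the other end, the first 640 kb of the short arm had higher values in DKO1 in all 32 bins, with means of -0.08 in DKO1 and -1.22 in HCT116. Of these bins 31.2% were A in DKO1 against 9.38% in HCT116. The stretch ends where an HCT116 interval of A starts, at 640001. Beyond it the values were lower in DKO1, with differences of -0.35 at 1 to 2 Mb and -0.21 at 4 to 5 Mb. The ends of other autosomes were not compared with either end here.

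**Figure D4:**
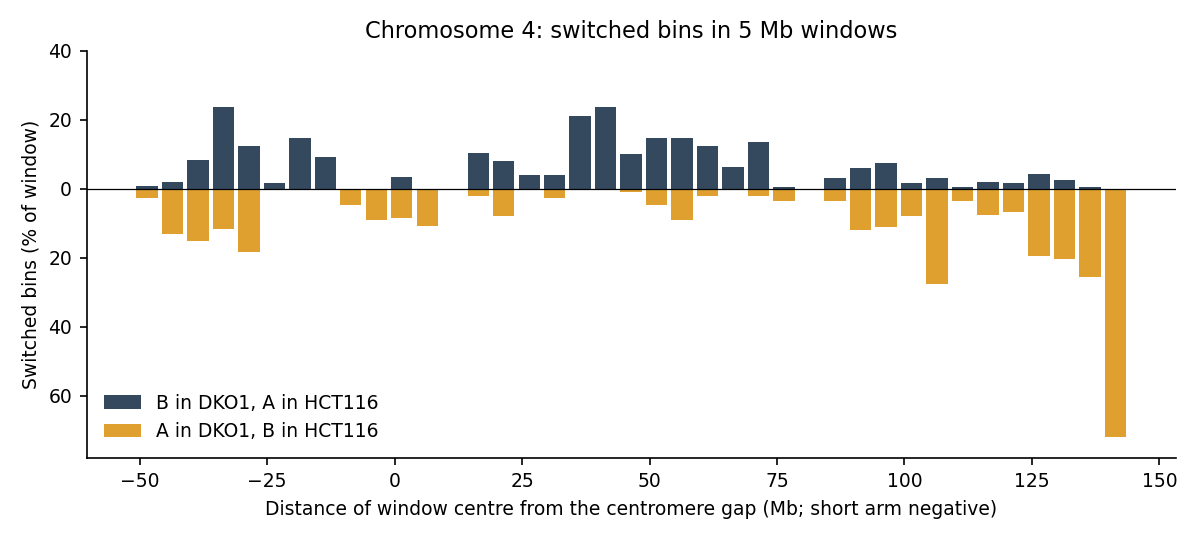
Share of bins in each 5 Mb window of chromosome 4 that were B in DKO1 and A in HCT116 (above 0) or A in DKO1 and B in HCT116 (below 0), in percent. The x axis is the distance from the centromere gap in Mb. The last bar, over 50 bins, reaches 72.0% downward, and upward bars dominate between 85 and 125 Mb of the chromosome, where they average 14.6% over bins.

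The share of switched bins was lowest in windows of both arms. In 8 of the 38 windows under 5% of bins switched. The windows at 60 to 65 Mb and 130 to 135 Mb had no switched bin, and those at 25 to 30 Mb, 0 to 5 Mb and 125 to 130 Mb had 1.60%, 3.6% and 4%, the last shared with 160 to 165 Mb. The windows with no switched bin lie in the longest intervals of B. The B interval at 57980001 to 68300000, of 10320 kb, had means of -1.32 in DKO1 and -1.51 in HCT116 and 99.8% of its bins were B in DKO1. Its border with A at 57980001 fell on the same bin in both lines. The B interval at 130060001 to 138740000, of 8680 kb, was B in every bin in DKO1, with means of -1.07 in DKO1 and -0.95 in HCT116. The windows at 60 to 65 Mb and 130 to 135 Mb still had a low r within the window, of 0.25 and 0.64.

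Among the 5 longest B intervals of HCT116, those at 178780001 to 182420000 and 160400001 to 163960000, were 85.2% and 98.9% B in DKO1, with means of -0.41 and -0.65 in DKO1 and -0.47 and -0.65 in HCT116. Among the 5 longest intervals of A, 4 kept A in over 94% of bins. They lay at 73860001 to 79900000 (94.7%), 37360001 to 42400000 (99.2%), 640001 to 5000000 (99.1%) and 150840001 to 154680000 (97.9%), and the fifth was the interval at 87260001 described above. HCT116 had 24 borders between an interval of A and one of B that both measured at least 500 kb. Of these, 14 (58.3%, 38.8 to 75.5) had a DKO1 border of the same direction within 40 kb, where the background was 63.6%.

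Domains were listed sparsely on chromosome 4 in both lines. The density was 31.5 per 100 Mb of bins in DKO1 and 95.4 in HCT116. The HCT116 density was the lowest of the 22 autosomes and that of DKO1 the second lowest, after chromosome 13. The number in DKO1 was 33.0% of that in HCT116, where the other autosomes had a median of 42.5% and chromosomes 13 and 8 had a smaller share. Domain lengths were alike, with a median of 280 kb and quartiles of 240 and 320 kb in each line. Each list held 1 entry over 2 Mb, at 49000001 to 52920000, which spans the centromere gap and holds bins over little of its length. Without it, domains covered 16.8 Mb in DKO1 and 51.24 Mb in HCT116.

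Most DKO1 domains were also listed in HCT116, as on the other autosomes. Of the 100 distinct boundaries in DKO1, 97 (97.0%, 91.5 to 99.0) had an HCT116 boundary within 40 kb, where the background was 92.3%, inside this interval. The share was the highest of the 22 autosomes, followed by 95.5% on chromosome 10. Of the 287 boundaries in HCT116, 97 (33.8%, 28.6 to 39.5) had a DKO1 boundary, where the background was 45.7%. A domain was called matched where it and a domain of the other list covered at least 80% of each other. In DKO1 52 of 59 were matched (88.1%, 77.5 to 94.1, background 83.8%), and in HCT116 52 of 179 (29.1%, 22.9 to 36.1, background 36.2%), with 32 identical at both ends. Of the 127 unmatched HCT116 domains, 117 had under 20% of their length covered in the DKO1 list.

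In all, 7 DKO1 domains lacked a match in HCT116, and 6 of them overlapped HCT116 domains, 3 over their whole length. The exception, at 26000001 to 26440000, overlapped no HCT116 domain and lay in strong A, with a mean PC1 of 1.56 in DKO1 and 1.67 in HCT116. It was named after its values were seen.

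The arms and windows differed in how many domains DKO1 had for those of HCT116. On the short arm DKO1 had 32 domains and HCT116 63, or 50.8%, and on the long arm DKO1 had 27 and HCT116 116, or 23.3%. The first 10 Mb of the short arm, with mean PC1 of 1.07 in DKO1 and 1.01 in HCT116, held 21 domains in DKO1 and 31 in HCT116, which is 35.6% of all DKO1 domains of the chromosome and 17.3% of those in HCT116. From 10 to 50 Mb there were 10 in DKO1 and 31 in HCT116.

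The windows with the most HCT116 domains were 5 to 10 Mb (10 in DKO1, 17 in HCT116), 0 to 5 Mb (11 in DKO1, 14 in HCT116) and 70 to 75 Mb (1 in DKO1, 11 in HCT116). Next came 4 windows with 8 in HCT116, of which 75 to 80 Mb had 7 in DKO1 and the others, at 80, 85 and 110 Mb, had 2 each. The neighbouring windows at 70 to 75 and 75 to 80 Mb also differed in PC1. At 70 to 75 Mb PC1 averaged -0.12 in DKO1 and -0.10 in HCT116, with r = 0.62, and at 75 to 80 Mb 0.93 in DKO1 and 1.04 in HCT116. No window had more domains in DKO1 than in HCT116, and 12 windows with HCT116 domains had none in DKO1.

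**Figure D5:**
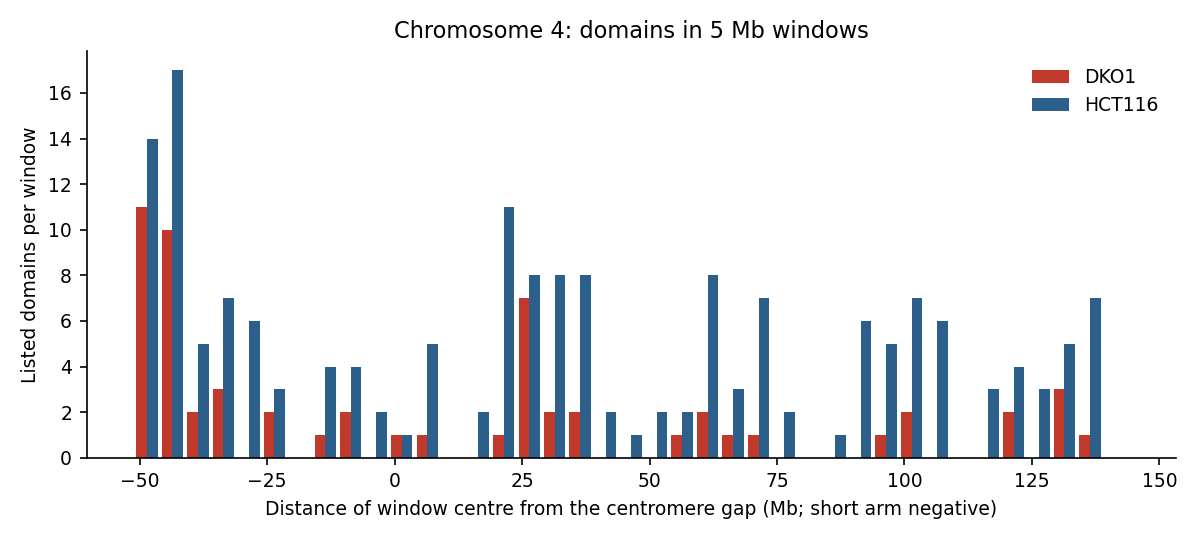
Number of listed domains with their midpoint in each 5 Mb window of chromosome 4, for DKO1 (red, left bar of each pair) and HCT116 (blue, right bar). The x axis is the distance from the centromere gap in Mb. The DKO1 bars reach 11 and 10 in the first 2 windows and 7 at 75 to 80 Mb, and are 0 in 17 windows, against 5 windows without a domain in HCT116.

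The HCT116 domains with a match in DKO1 lay mostly in A. A domain was put in A where its mean PC1 in its own line was positive, as for 56 of 59 domains in DKO1 and 126 of 179 in HCT116. Scaled to 100 Mb of its own compartment, the density in DKO1 was 63.1 in A and 3.04 in B, against 144.8 in A and 52.7 in B in HCT116. Of the HCT116 domains of A 46 were matched in DKO1 (36.5%, 28.6 to 45.2), where the background was 45.3%. Of the 53 HCT116 domains of B 6 were matched (11.3%, 5.29 to 22.6), where the background was 17.2%. The HCT116 domains with a match had a median PC1 of 1.30 in DKO1 and 1.29 in HCT116, and those without had 0.26 in DKO1 and 0.37 in HCT116.

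The matched domains with the lowest HCT116 PC1 lay on both arms. The domain at 82800001 to 83200000 had means of -0.30 in DKO1 and -0.97 in HCT116 and lay at the edge of the A interval that starts at 83180001. Those at 15200001 to 15480000 and 400001 to 680000, with the same limits in both lists, were above 0 in DKO1, at 0.20 and 0.57, and below 0 in HCT116, at -0.44 and -0.25. The domain at 70520001 to 70760000, also with the same limits in both, had -0.89 in DKO1 and -0.14 in HCT116. The fifth was the entry across the centromere gap.

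Long stretches of chromosome 4 held no domain. In DKO1 the longest was 28.32 Mb, at 120200001 to 148520000, and 19 HCT116 domains lay inside it, although 42.4% of its bins were A in DKO1. The next, at 89160001 to 108640000, measured 19.48 Mb and held 8 HCT116 domains, and another of 16.2 Mb, at 154520001 to 170720000, held 10. In HCT116 the longest stretch was 10.92 Mb, at 128680001 to 139600000, followed by 10.24 Mb each at 27360001 to 37600000 and 57720001 to 67960000. No DKO1 domain lay inside any of these 3. The stretch with more A in DKO1, from 140 Mb to the end, had 9 domains in DKO1 and 46 in HCT116, and the stretch with less A, from 85 to 125 Mb, had 7 in DKO1 and 33 in HCT116. How much the unknown depth of the maps contributes to the number of listed domains was not tested.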

How the data were processed

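Hi-C was measured in 3 libraries of DKO1 and 3 of HCT116, from formaldehyde-fixed chromatin cut with a pair of restriction enzymes, per the labels' protocols. Per the submitters' processing notes, HiC-Pro, HOMER 4.6 and the build hg19 (GRCh37) were used, without a role for each. The domain caller is not stated there. The deposited PC1 score was used as given, for bins of 20 kb. Domains were deposited as starts and ends on a 40 kb grid. Depth is unknown. Bins were joined by chromosome and start, and windows of 5 Mb were counted from position 0. Boundaries were distinct starts and ends, found within 40 kb, and a domain took the mean PC1 of its bins. Regions were named by rules: windows with the highest and lowest switched share or difference, the longest intervals and domain-free stretches, runs of at least 200 kb that were the longest or differed most, windows with the most HCT116 domains, and matched domains of lowest PC1; others are named for illustration after their values were seen. The members, rules and alternatives were chosen with earlier results of these data known. No p-value was computed, as each line has 1 pooled value. No genome or gene positions on hg19 were used here, so regions carry no gene names or sequences. The gene table, on GRCh38, served only to count genes per chromosome. The functions were tested on the HCT116 track of chromosome 4 with planted sign changes, and on small made-up sets of boundaries and domains. Python 3.11.15, numpy 2.4.6, pandas 2.3.3, scipy 1.17.1 and matplotlib 3.10.9 were used.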

Additional observations from a re-analysis of the deposited data

How the results depend on the processing

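The removal of 10 to 50 Mb was chosen after seeing the data. No paired analysis was possible because each line has a single pooled track, and no replicate could be left out. The A-loss and A-gain shares were 1.07% and 0.34% with a PC1 minimum of 0.5, 7.54% and 6.62% after the 10 Mb running mean, and 2.78% and 1.94% in runs of at least 200 kb. The A-loss share was 7.58% with the median subtracted and 6.10% without 10 to 50 Mb, and the A-gain share was 6.83% without the ends. The net change in A was -0.74 with the minimum, -0.92 after the running mean, -0.20 without the ends and -0.84 in long runs. The correlation was 0.92 with the minimum, 0.84 after smoothing and 0.88 without 10 to 50 Mb. The minimum leaves out the weak bins, which switch most often, so it favours a higher correlation and lower switched shares. Its shares are of the bins kept. The part from 10 to 50 Mb holds the stretch of low r on the short arm, so its removal also favours a higher correlation. The long arm minus the short arm in net change was 4.54 after the running mean, -0.089 without the ends and -5.29 without 10 to 50 Mb. At a tolerance of 0 kb 76% of boundaries in DKO1 and 26.5% in HCT116 were found, and at 90% overlap 19.6% of HCT116 domains were matched. None of the 13 named runs changed direction under the 4 alternatives tried, but this says little, as every bin of a run has opposite signs by definition. Subtraction of a median or arm mean shifts a track or arm by a constant, and smoothing acts over few bins, so these could hardly reverse a run. Only the running mean changed the differences much. It reduced 6 runs by over 1.5 times and left the means of opposite sign in 10, all but those at 5580001, 189140001 and 190320001. The number of domains in DKO1 over that in HCT116 stayed between 0.324 and 0.333. The scaling per chromosome means that PC1 shows relative, not absolute, differences.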

Other observations

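Over the 38 windows of 5 Mb, the number of domains and the mean PC1 of the same line correlated with r = 0.59 in DKO1 and 0.61 in HCT116, as a description over neighbouring windows of 1 map.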
